A study of Mus musculus with 21 samples.

Results

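The genes described here are 10 components of bone morphogenetic protein (BMP) signalling, picked by name from the 23983 genes of the study's expression table. They are the ligand genes *Bmp2*, *Bmp4* and *Bmp7*, the antagonist genes *Nog* (Noggin), *Chrd* (Chordin) and *Fst* (Follistatin), the target genes *Id1*, *Id2* and *Id3*, and *Bambi*, which encodes a receptor lacking a kinase domain. All 10 were found by their gene symbol and all 10 reached 1 FPKM in at least 1 library. For each gene, the level in 9 RNA-seq libraries is given first, then the peaks of the transcription factors T and Foxa2 nearby.

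BMP ligands are secreted dimers that bring together type I and type II serine/threonine kinase receptors, which phosphorylate Smad1, Smad5 and Smad9. With Smad4, these Smads enter the nucleus and raise transcription of genes such as the *Id* genes, whose products hold back basic helix-loop-helix factors. Noggin, Chordin and Follistatin bind ligands outside the cell, and the node and notochord are classical sources of Noggin and Chordin in the vertebrate embryo.

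The study compared mouse notochord progenitors (NotoP) with mesoderm progenitors (MP) and with the notochord of the trunk, and made like cells in culture to map T and Foxa2 binding. Of its 21 samples, 11 were used here, namely 9 RNA-seq libraries and the 2 ChIP-seq libraries for T and Foxa2, and the other 10 (chromatin accessibility and histone marks) were not. All cells derived from F1G4 embryonic stem cells, a hybrid of C57BL/6N and SV129. The embryos were made from these cells, carried the reporters *T::H2B-Venus*, *Noto::H2B-mCherry* and *Foxa2::H2B-mTurquoise* on bacterial artificial chromosomes, and were pooled before sorting. NotoP cells were Noto+/T+/Foxa2+ and MP cells T+/Noto-/Foxa2-, both from the caudal end, at E8.5 (Theiler stage 12) and E9.5 (Theiler stage 16). Trunk notochord was sorted as Noto+/T+/Foxa2+ from the trunk at both stages. The study's own list of libraries marks the Foxa2 gate as high for the trunk and for E9.5 NotoP but not for E8.5 NotoP, and the T gate as high for MP, so the E8.5 trunk and NotoP libraries also differ in gate, as do the NotoP libraries of the stages. The cultured cells carried *TRE::Foxa2-IRES-EGFP* in *Rosa26*, *T::H2B-mCherry-T2A-irTA* and *Noto::H2B-mTurquoise* (the latter pair on bacterial artificial chromosomes), and received bFGF (10 ng/ml) from day 1 to day 3 and the Wnt agonist CHIR99021 from day 2. NMPdiff cells (neuromesodermal-like, T+/Noto-) were taken on day 3. MPdiff cells (T+/Noto-) and NotoPdiff cells (Noto+/T+) were taken on day 4, and the NotoPdiff cultures alone received doxycycline (1 ng/ml, day 2 to day 4), which switches on the *Foxa2* transgene where the *T* reporter drives irTA. *Foxa2* in NotoPdiff cells thus includes transgene RNA. Unsorted cultures enriched for NotoPdiff cells gave the ChIP-seq libraries, so peaks come from a mixture.

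Levels are FPKM, RNA-seq fragments scaled by transcript length and by the mapped fragments of the library, as the authors deposited them. Every group is 1 library, so there is no replicate check, no test, no SD and no p-value, and each difference describes the libraries named. The table keeps no read counts, so no counting error was computed for a level. A gene was counted as higher or lower in a comparison when the ratio of its FPKM values, after adding 1 to both, reached 3-fold, and as tested when it had at least 1 FPKM in a library compared. Embryonic and cultured libraries were sequenced on different instruments, so ratios stay within each set. Where levels of both sets are ranked together, this describes the listed values only, since culture and instrument cannot be told apart.

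A level of 0 needs care in E8.5 MP and in both trunk notochord libraries, which the study made from fewer cells and lists with fewer mapped reads than the rest of the embryonic libraries, E8.5 MP from the fewest of all. Both trunk libraries also came from a wider range of somite stages than NotoP of the same stage. E8.5 MP lists 13945 genes (58.1%) at 0, beside 12407 (51.7%) in E9.5 trunk notochord, 11739 (48.9%) in E8.5 trunk notochord and 10719 to 11385 in the other 3 embryonic libraries. The cultured libraries list 7573 to 8246. Of the 3667 genes with at least 10 FPKM in each of the other 8 libraries, 12 were at 0 in E8.5 MP, and the same check gave 7 of 3614 in E9.5 trunk notochord and 0 in each of the other libraries. Bulk libraries cannot tell fewer cells of a type from less RNA per cell.

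Marker genes were examined to check the identity of each library. The 8 notochord markers (*T*, *Noto*, *Foxa2*, *Shh*, *Foxa1*, *Mnx1*, *Cthrc1*, *Igfbp5*) summed to 1623 and 1382 FPKM in NotoP at E8.5 and E9.5, 1554 and 1700 FPKM in trunk notochord, and 695 FPKM in NotoPdiff cells. All 8 were at 1 FPKM or more in these 5 libraries. *T* was the most abundant in NotoP (909 and 744 FPKM) and NotoPdiff (375 FPKM), and *Shh* in trunk notochord (468 and 607 FPKM). The list summed to 92.2 and 169 FPKM in MP, 427 FPKM in NMPdiff and 33.7 FPKM in MPdiff cells, most of it *T* in each. *Noto* was listed at 0 in both MP libraries and in MPdiff cells, and *Shh* at 0 in E8.5 MP, NMPdiff and MPdiff cells. *T*, *Noto* and *Foxa2* are the genes whose reporters were sorted on, so their levels follow in part from the sort.

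The 8 mesoderm progenitor markers, led by *Rspo3* in most libraries, summed to 235 and 564 FPKM in MP, but also to 370 and 300 FPKM in NotoP, and to 14.2 and 4.48 FPKM in trunk notochord. *Tbx6* and *Msgn1* were listed at 0 in both trunk libraries. In culture the list summed to 146 FPKM in NMPdiff, 180 in NotoPdiff and 295 in MPdiff cells. The NotoP libraries therefore hold these transcripts as the MP libraries do, and the trunk notochord libraries nearly lack them. Bulk sums do not show whether the same cells hold them. The 8 neuromesodermal markers were likewise low in trunk notochord, at 31.7 and 18.0 FPKM beside 243 to 301 FPKM in NotoP and MP, but ran the other way in culture, at 139, 124 and 100 FPKM in NMPdiff, NotoPdiff and MPdiff cells. *Cdx2* or *Cdx4* led this list in the caudal libraries, *Sox2* in trunk notochord and *Nkx1-2* in NMPdiff cells.

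Several lists of other cell types were high in particular libraries, which bears on BMP genes because lateral plate, gut and somite cells use the pathway too. Lateral plate markers summed to 83.4 FPKM in E8.5 MP and 69.9 FPKM in MPdiff cells, with *Foxf1* highest in both (26.8 and 36.6 FPKM). In E9.5 MP this list summed to 1.21 FPKM, with *Hand2*, *Gata6*, *Tbx20*, *Pitx1* and *Tbx4* at 0. It summed to 10.7 and 1.09 FPKM in NotoP, 27.9 and 4.51 FPKM in trunk notochord, and 7.16 and 2.30 FPKM in NMPdiff and NotoPdiff cells. The 2 MP libraries thus differed in these transcripts. Gut markers summed to 160 and 106 FPKM in NotoP, 204 and 183 FPKM in trunk notochord and 268 FPKM in NotoPdiff cells, led by *Apela* in NotoP and E8.5 trunk. They summed to 123 FPKM in E8.5 MP and 7.02 FPKM in E9.5 MP, and to 113 and 24.3 FPKM in NMPdiff and MPdiff cells. The single markers did not run together. *Sox17* was listed at 0 in E9.5 NotoP and in both trunk libraries, and *Ttr* and *Afp* at 0 in both NotoP libraries. *Ttr* had 36.0 and 23.4 FPKM in trunk notochord. *Afp*, made by yolk sac and gut endoderm, was the most abundant gut marker in E8.5 MP (62.2 FPKM) and E9.5 trunk notochord (95.7 FPKM), 2.11 FPKM in E8.5 trunk notochord and 0.233 FPKM or less in the other 6 libraries. Somite markers reached 381 FPKM in MPdiff cells, of which *Aldh1a2* was 364 FPKM, beside 77.0 FPKM in NotoPdiff, 1.22 FPKM in NMPdiff and 37.1 to 84.7 FPKM in the embryonic libraries. The part of such cells in the BMP gene levels was not tested.

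Neural tube markers summed to 1.18 to 68.9 FPKM, nearly all *Irx3* (64.6 and 53.6 FPKM) in trunk notochord, where *Pax6* and *Olig2* were listed at 0. Surface ectoderm markers summed to 22.7 FPKM or less, with *Wnt6* highest (14.6 FPKM, E8.5 NotoP) and *Krt5* and *Krt14* below 1 FPKM in every library. Endothelial markers summed to 6.64 FPKM or less, led by *Etv2* in E8.5 NotoP, and blood markers to 2.27 FPKM or less, all of it *Alas2* in E8.5 trunk notochord, with *Hbb-bh1* and *Hba-a1* at 0 in all 6 embryonic libraries. Pluripotency markers summed to 439 FPKM in NMPdiff cells, 269 FPKM of it *Pou5f1*, to 17.2 and 17.7 FPKM in NotoPdiff and MPdiff cells, and to at most 2.42 FPKM in the embryo. The 12 housekeeping genes were above 1 FPKM in all 9 libraries and summed to 6772 FPKM in E9.5 trunk notochord, the lowest, and 11878 FPKM in NotoPdiff cells, the highest, with *Eef1a1* on top.

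Among the ligand genes, *Bmp7* was the most abundant in 7 of the 9 libraries. *Bmp7* had 49.1 and 14.1 FPKM in NotoP and MP at E8.5, 17.2 and 0.748 FPKM at E9.5, 19.2 and 16.8 FPKM in trunk notochord (the earlier stage first, here and in what follows), and 9.52, 43.4 and 5.41 FPKM in NMPdiff, NotoPdiff and MPdiff cells. It was higher in NotoP than in MP of the same stage and higher in NotoPdiff than in the other cultured cells, while E8.5 MP lay near both trunk libraries and E9.5 NotoP. *Bmp7* made up 81.9% of the summed FPKM of the 3 ligand genes in E8.5 NotoP and 84.8% in NotoPdiff cells, but 19.6% in E9.5 MP and 22.2% in MPdiff cells.

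*Bmp4*, known for its part in ventral and posterior mesoderm, followed another order. It had 4.73 and 5.21 FPKM in NotoP and MP at E8.5, 9.69 and 2.29 FPKM at E9.5, 0 and 2.38 FPKM in trunk notochord, and 0.737, 5.01 and 15.0 FPKM in NMPdiff, NotoPdiff and MPdiff cells. MPdiff cells had the most *Bmp4*, and the embryonic counterpart at E9.5 had little. MPdiff is also the library with the highest somite list, most of it *Aldh1a2*, and a high lateral plate list. *Bmp4* overlaps *Gm15217* and *Gm15222*, both on the opposite strand.

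*Bmp2* had the lowest mean level of the 3 ligand genes over the 9 libraries, 2.88 FPKM. Its levels were 6.08 FPKM in NotoP and 0 in MP at E8.5, 4.51 and 0.769 FPKM at E9.5, 3.70 and 2.00 FPKM in trunk notochord, and 2.06, 2.77 and 4.00 FPKM in NMPdiff, NotoPdiff and MPdiff cells. All 4 embryonic Noto+ libraries were above both MP libraries, whereas in culture MPdiff cells had the most. At the level *Bmp2* had in E9.5 MP, a 0 at E8.5 says little, since 64.9% of the 1891 genes within 2-fold of that level in E9.5 MP were at 0 in E8.5 MP.

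*Nog*, a direct binder of BMP2, BMP4 and BMP7, separated the libraries by how they were sorted. *Nog* had 75.1 FPKM in NotoP and 0 in MP at E8.5, 37.2 and 1.67 FPKM at E9.5, 77.8 and 48.2 FPKM in trunk notochord, and 1.16, 40.1 and 1.83 FPKM in NMPdiff, NotoPdiff and MPdiff cells. The 5 libraries sorted for Noto all lay at 37.2 FPKM or above and the other 4 at 1.83 FPKM or below, with no overlap. *Sema3e*, *Ptch1* and *Clu*, listed below as most like *Nog*, split the libraries in the same way. How many of all genes do so was not counted, so the split sets nothing apart. Unlike *Chrd*, *Nog* was about as high in trunk notochord as in NotoP at each stage.

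*Chrd*, which binds ligands until proteases of the tolloid family cut it, was highest in the progenitors. It had 37.1 FPKM in NotoP and 0 in MP at E8.5, 10.6 and 0.279 FPKM at E9.5, 6.72 FPKM and 0 in trunk notochord, and 1.05, 28.5 and 0.186 FPKM in NMPdiff, NotoPdiff and MPdiff cells. Progenitors exceeded trunk notochord of the same stage, and the E9.5 libraries lay below their E8.5 counterparts in both tissues. Of the 4307 genes within 2-fold of the E8.5 trunk level of *Chrd*, 10.6% were listed at 0 in E9.5 trunk notochord. *Chrd* overlaps *Thpo* on the opposite strand.

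*Fst*, whose product binds activins more tightly than BMPs, was by far highest in NMPdiff cells among the cultured libraries. It had 6.00 and 2.03 FPKM in NotoP and MP at E8.5, 6.04 and 4.05 FPKM at E9.5, 16.1 FPKM and 0 in trunk notochord, and 295, 43.0 and 27.5 FPKM in NMPdiff, NotoPdiff and MPdiff cells. NotoP and MP differed by less than 3-fold in *Fst* at each stage. NMPdiff cells are also the library with the highest pluripotency list, and the part of that in *Fst* was not tested. Of the 4578 genes within 2-fold of 16.1 FPKM in E8.5 trunk notochord, 3.43% were listed at 0 at E9.5, so such a 0 is less common than those above. *Fst* overlaps *Gm47040* on the opposite strand.

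**Figure D1:**
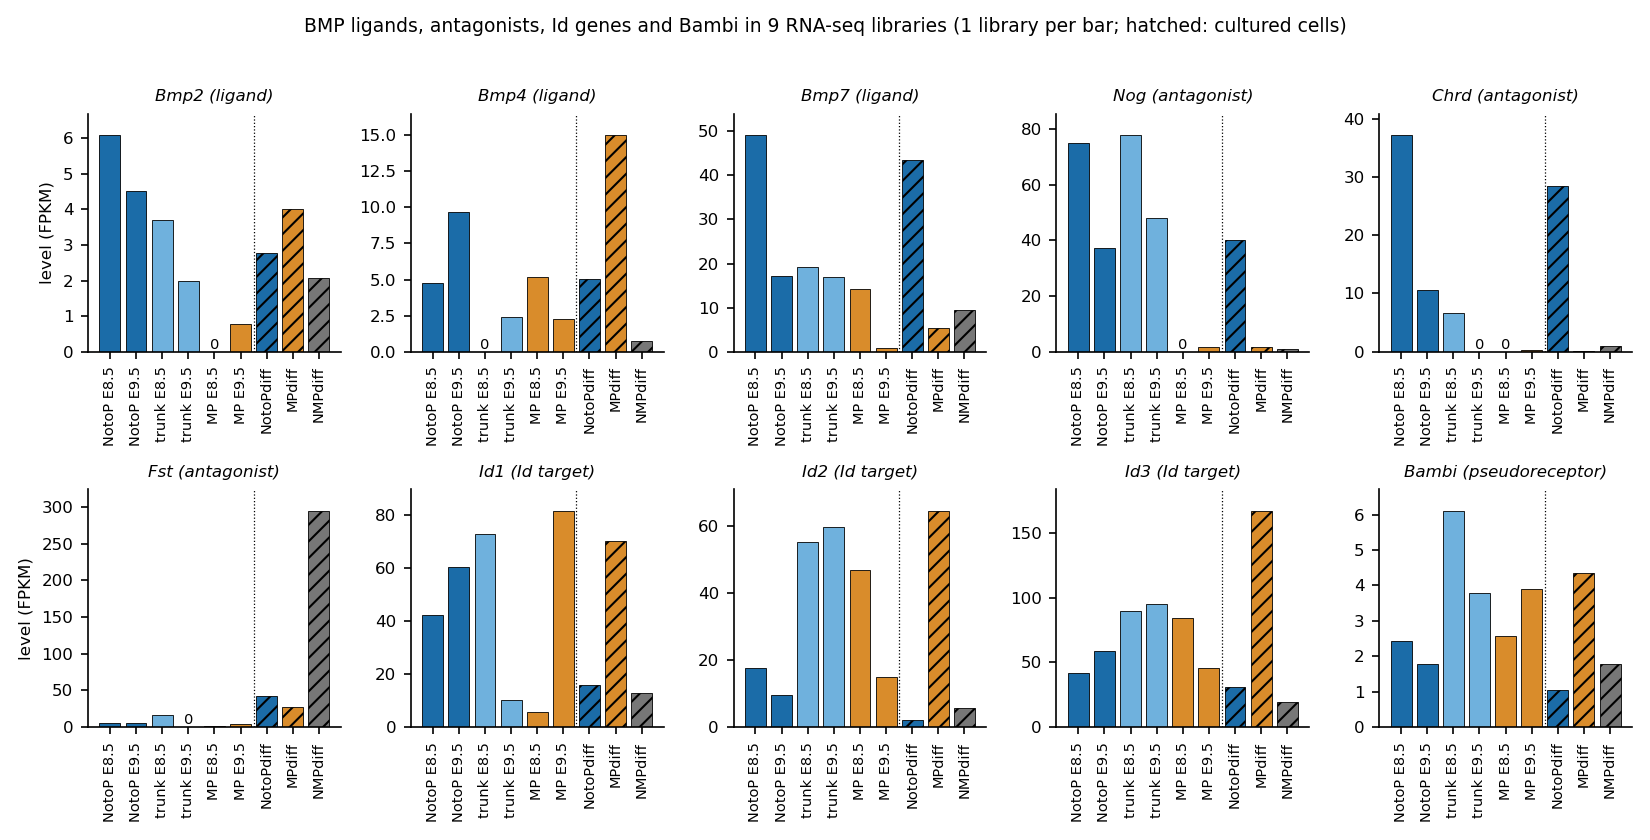
Level in FPKM (vertical axes, each with its own scale) of the 10 genes in the 9 libraries, 1 bar per library, hatched for cultured cells and with 0 written where a gene is listed at 0. *Nog* is at 37.2 FPKM or above in the 5 libraries sorted for Noto and at 1.83 FPKM or below in the other 4, while *Id3* is at 19.4 FPKM or above in all 9. Other genes split the libraries as *Nog* does, and their share of all genes was not counted.

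FPKM is scaled by transcript length, so antagonist and ligand genes can be summed within a library. The 3 antagonist genes summed to 118 FPKM and the 3 ligand genes to 59.9 FPKM in E8.5 NotoP, a ratio of 1.97, and to 53.8 and 31.4 FPKM in E9.5 NotoP, a ratio of 1.71. Trunk notochord had ratios of 4.40 (E8.5) and 2.27 (E9.5), and NotoPdiff cells a ratio of 2.18. In these 5 libraries the RNA of the 3 antagonist genes thus exceeded that of the 3 ligand genes. *Nog* made up 63.5% and 69.1% of the antagonist sum in NotoP, 77.3% and 100% in trunk notochord, and 36.0% in NotoPdiff cells, where *Fst* made up 38.5%.

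The libraries not sorted for Noto spread widely in this ratio. E8.5 MP had 0.105, from antagonist and ligand sums of 2.03 and 19.3 FPKM, and E9.5 MP had 1.57, from 6.00 and 3.81 FPKM. MPdiff cells had 1.21 and NMPdiff cells 24.1, with *Fst* making up 93.2% and 99.3% of their antagonist sums. These values turn on *Fst*, because with *Nog* and *Chrd* alone the ratio was 0 in E8.5 MP, 0.510 in E9.5 MP, 0.0827 in MPdiff, 0.179 in NMPdiff and 1.34 in NotoPdiff cells. With all listed ligand genes counted, *Bmp3* and *Bmp5* among them, and still the same 3 antagonist genes, the ratio came to 2.13 and 0.963 in trunk notochord and 0.957 in MPdiff cells, so whether it passes 1 in E9.5 trunk notochord and MPdiff cells depends on the genes summed. *Bmp3* (13.7 FPKM in E9.5 trunk notochord) opposes other BMPs, and the ratio with all listed ligand genes except *Bmp3* was not computed. Further antagonist genes, such as *Sostdc1* at 55.7 FPKM in E9.5 trunk notochord, were not added in any setting. RNA sums do not give amounts of secreted protein.

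*Id3* was the most abundant *Id* gene in 6 of the 9 libraries and *Id1* in the other 3. *Id3* had 41.6 and 84.4 FPKM in NotoP and MP at E8.5, 58.8 and 45.6 FPKM at E9.5, 90.0 and 94.8 FPKM in trunk notochord, and 19.4, 31.0 and 167 FPKM in NMPdiff, NotoPdiff and MPdiff cells. NotoP and MP changed places between the stages, trunk notochord was high at both, and MPdiff cells were highest of all. No library was near 0 for *Id3*.

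*Id2* had 17.8 and 46.9 FPKM in NotoP and MP at E8.5, 9.62 and 15.1 FPKM at E9.5, 55.3 and 59.8 FPKM in trunk notochord, and 5.61, 2.14 and 64.6 FPKM in NMPdiff, NotoPdiff and MPdiff cells. Progenitors sorted for Noto, from embryo or culture, had less *Id2* than the MP or MPdiff cells beside them, and trunk notochord had more than either MP library. NotoPdiff cells were lowest for *Id2*, and *Bmp7* and *Nog* were high in the same library.

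*Id1* was uneven between stages. Its levels were 42.4 and 5.56 FPKM in NotoP and MP at E8.5, 60.7 and 81.8 FPKM at E9.5, 73.0 and 10.2 FPKM in trunk notochord, and 12.8, 15.7 and 70.4 FPKM in NMPdiff, NotoPdiff and MPdiff cells. The 2 low embryonic values fall in E8.5 MP and E9.5 trunk notochord, which are also the libraries with the most genes listed at 0 and with the most *Afp*. The part of either in the *Id1* level was not tested. Summed over the 3 genes, *Id* RNA came to 102 and 129 FPKM in NotoP, 137 and 142 FPKM in MP, 218 and 165 FPKM in trunk notochord, and 37.9, 48.8 and 302 FPKM in NMPdiff, NotoPdiff and MPdiff cells. The sum varied less among embryonic libraries than *Id1* did, since *Id2* and *Id3* were high in both libraries with little *Id1*.

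*Bambi*, whose product takes the place of a type I receptor without signalling and whose RNA often accompanies BMP activity, was weak throughout. It ranged from 1.05 FPKM in NotoPdiff to 6.11 FPKM in E8.5 trunk notochord, with 2.43 and 2.57 FPKM in NotoP and MP at E8.5, 1.79 and 3.90 FPKM at E9.5, 3.77 FPKM in E9.5 trunk notochord, and 1.78 and 4.36 FPKM in NMPdiff and MPdiff cells. With 1 FPKM added, *Bambi* was within 3-fold in every comparison here, and with 0.1 FPKM added it was past 3-fold for NotoPdiff against MPdiff cells. Like *Id2* and *Id3*, it was lowest in NMPdiff and NotoPdiff cells and higher in MPdiff cells.

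The comparison of NotoP with MP asks which BMP components distinguish notochord progenitors from the mesoderm progenitors beside them. At E8.5, 5 of the 10 genes were at least 3-fold higher in NotoP (*Bmp2*, *Bmp7*, *Nog*, *Chrd* and *Id1*), beside 18.0% of the 11738 genes tested, and 0 were lower, beside 8.2%. *Bmp2*, *Nog* and *Chrd* were listed at 0 in MP, so no ratio is given for them. The log2 ratio was 1.73 for *Bmp7* and 2.73 for *Id1*, and −0.12 for *Bmp4*, 1.21 for *Fst*, −1.35 for *Id2* and −0.06 for *Bambi*, and *Id3* was 2.03-fold lower by plain FPKM. The median log2 ratio was 1.47 over the 10 genes and 0.15 over all tested.

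The large share of all genes past 3-fold at E8.5 makes this stage a weak background for any single gene. When E9.5 MP took the place of E8.5 MP, a setting added after the data were seen, 4 genes stayed past 3-fold in E8.5 NotoP and *Id1* did not. With 5 FPKM added in place of 1, the count was 3 (*Nog*, *Chrd* and *Id1*). Of the genes within 2-fold of their E9.5 MP level, 47.0% of 2287 for *Nog* and 80.6% of 1465 for *Chrd* were at 0 in E8.5 MP. Zeros at such low levels are thus common, and the NotoP levels beside them (75.1 and 37.1 FPKM) lie well above that range.

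At E9.5, where both libraries list similar numbers of genes at 0, 5 genes were higher in NotoP (*Bmp2*, *Bmp4*, *Bmp7*, *Nog* and *Chrd*), beside 5.33% of 11815 genes, and 0 were lower, beside 2.25%. *Nog* had a log2 ratio of 3.84, *Bmp7* of 3.38 and *Chrd* of 3.18, and *Bmp4* and *Bmp2* had 1.70 and 1.64. All 3 ligand genes and 2 of the 3 antagonist genes (*Nog* and *Chrd*) thus lay on the NotoP side past 3-fold. *Fst* had 0.48, *Id1* −0.42, *Id2* −0.60, *Id3* 0.36 and *Bambi* −0.81, so none of the *Id* genes was near 3-fold. Of 6 further targets tested, described below, 2 (*Msx2* and *Tbx3*) were lower in NotoP past 3-fold and 0 higher. The median was 1.06 over the 10 genes and 0.05 over all tested. With 5 FPKM added, 2 genes (*Bmp7* and *Nog*) stayed past 3-fold.

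Genes past 3-fold at both stages were counted next, by the rule of this report, which adds 1 FPKM and leaves out genes under 1 FPKM and so need not pick the study's own set. In NotoP, 4 of the 10 genes met this (*Bmp2*, *Bmp7*, *Nog* and *Chrd*), beside 2.47% of 12700 genes, and in MP 0 did, beside 0.449%. With 5 FPKM added, *Nog* alone met it, a count of 1. The members were picked for their known roles, *Nog* and *Chrd* as notochord genes among them, so these counts describe the list and set nothing apart.

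In culture, *Bmp7*, *Nog* and *Chrd* were again on the NotoPdiff side, and all 3 *Id* genes on the MPdiff side. Against MPdiff cells, NotoPdiff cells had 3 genes higher (*Bmp7*, *Nog* and *Chrd*), beside 3.02% of 12313 genes, and 3 lower (*Id1*, *Id2* and *Id3*), beside 0.861%. The log2 ratio was 4.64 for *Chrd*, 3.86 for *Nog* and 2.79 for *Bmp7*. For the *Id* genes it was −4.38 (*Id2*), −2.39 (*Id3*) and −2.09 (*Id1*), that is 30.2-fold, 5.40-fold and 4.47-fold lower by plain FPKM. All 3 *Id* genes lay on the same side here, which they did at neither embryonic stage. *Bmp4* (−1.41), *Bambi* (−1.39), *Bmp2* (−0.41) and *Fst* (0.63) did not reach 3-fold. The median was −0.90 over the 10 genes and 0.03 over all tested.

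These 2 libraries also differ in doxycycline and in lateral plate markers (2.30 FPKM in NotoPdiff, 69.9 FPKM in MPdiff). Somite markers differ too (77.0 and 381 FPKM), with *Aldh1a2* at 70.3 and 364 FPKM of these sums. The part of doxycycline and of either marker list in the *Id* difference was not tested. In this design sorted identity, doxycycline and the *Foxa2* transgene cannot be told apart.

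NMPdiff cells, a day earlier, are the comparator of the next comparisons, which therefore share a library. Against them, NotoPdiff cells had 4 genes higher (*Bmp4*, *Bmp7*, *Nog* and *Chrd*), beside 2.52% of 12464 genes, and 1 lower (*Fst*), beside 1.53%. The log2 ratio was 4.25 for *Nog*, 3.85 for *Chrd*, 2.08 for *Bmp7*, 1.79 for *Bmp4* and −2.75 for *Fst*. The call of *Bmp4* was lost with 5 FPKM added. *Id1* had 0.28, *Id2* −1.07 and *Id3* 0.64, so *Id* RNA in NotoPdiff cells was within 3-fold of the NMPdiff level. The median was 0.47 over the 10 genes and 0.00 over all tested.

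MPdiff cells had 4 genes higher than NMPdiff cells (*Bmp4*, *Id1*, *Id2* and *Id3*), beside 1.78% of 12116 genes, and 1 lower (*Fst*), beside 2.92%. The log2 ratio was 3.31 for *Id2*, 3.20 for *Bmp4*, 3.04 for *Id3*, 2.37 for *Id1* and −3.38 for *Fst*. *Bmp4* and the *Id* genes were thus high together in MPdiff cells, and *Nog* (0.39) and *Chrd* (−0.79) lay within 3-fold. The median was 0.83 over the 10 genes and −0.04 over all tested. Both day 4 populations had less *Fst* than NMPdiff cells, and they parted in whether *Nog* and *Chrd* or the *Id* genes were high.

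Trunk notochord was set against NotoP to see which components differ between formed notochord and its progenitors. *Nog* stayed high and *Chrd* was lower, and *Bmp4* was lower unless 5 FPKM was added. At E8.5, 0 of the 10 genes were higher in trunk notochord, beside 8.79% of 12490 genes, and 2 were lower (*Bmp4* and *Chrd*), beside 8.0%, of which *Chrd* stayed with 5 FPKM added. *Chrd* had a log2 ratio of −2.31 and *Nog* of 0.05, and *Bmp4* was listed at 0 in the trunk, as were 18.9% of the 2556 genes within 2-fold of its E9.5 trunk level. *Id2* had a log2 ratio of 1.58, just under 3-fold, and passed it with 0.1 FPKM added, a count of 1. The median was 0.41 over the 10 genes and 0.05 over all tested.

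At E9.5, 1 gene was higher in trunk notochord (*Id2*, log2 ratio 2.52), beside 8.41% of 12349 genes, and 4 were lower (*Bmp4*, *Chrd*, *Fst* and *Id1*), beside 10.0%. *Bmp4* had −1.66 and *Id1* −2.46, and *Chrd* and *Fst* were listed at 0 in the trunk. *Nog* had 0.37, *Bmp7* −0.03 and *Id3* 0.68. The median was −0.45 over the 10 genes and 0.01 over all tested. When E8.5 trunk took the place of E9.5 trunk, a setting added after the data were seen, 1 gene (*Bmp4*) was lower, so the calls of *Fst*, *Id1* and *Chrd* rest on the E9.5 trunk library. With 5 FPKM added, 2 genes (*Chrd* and *Id1*) were lower.

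A further 50 genes of the pathway, listed by role, place the 10 in context, and 39 of them reached 1 FPKM in at least 1 library. Of the 7 receptor genes, 5 or 6 were tested in each comparison and 0 were past 3-fold in any, and since 0.861% to 18.0% of all genes were past it on a given side, a count of 0 among so few says little. *Bmpr1a*, a type I receptor for BMP2 and BMP4, ranged from 31.9 FPKM in NMPdiff cells to 53.3 FPKM in E9.5 trunk notochord. Of the 8 genes for Smads and Smurfs, 7 were tested in each comparison, and *Smad1* and *Smurf1* were lower in E9.5 trunk notochord than in NotoP, beside 10.0% of all genes, with log2 ratios of −1.92 and −2.31. The others, and these elsewhere, were within 3-fold. *Acvrl1* and *Smad9* stayed below 1 FPKM in all 9 libraries.

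Among the 50, *Bmp5* and *Dand5* were higher in NotoP at both stages, 2 of 34 tested, beside 2.47% of all genes, and 0 were lower, beside 0.449%. Pathway genes higher at both stages numbered 0 with 5 FPKM added, and 1 was lower with 0.1 FPKM added, at 2-fold or with E9.5 MP in place of E8.5 MP. *Bmp5*, a ligand related to *Bmp7*, had 19.8 FPKM in NotoP and 0 in MP at E8.5, 3.82 and 0.181 FPKM at E9.5, 13.9 and 14.1 FPKM in trunk notochord, and 0.269, 9.21 and 4.83 FPKM in NMPdiff, NotoPdiff and MPdiff cells. *Dand5*, a Nodal and BMP antagonist known from the node, had 9.53 and 5.29 FPKM in NotoP, 0 in both MP and both trunk notochord libraries, and 0.905, 19.3 and 0.901 FPKM in NMPdiff, NotoPdiff and MPdiff cells. *Dand5* was thus found in the progenitors and listed at 0 in trunk notochord, and *Chrd* was likewise lower in trunk notochord than in NotoP at both stages.

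At E8.5 alone, 5 of 30 tested pathway genes were higher in NotoP (*Bmp5*, *Dand5*, *Sostdc1*, *Bmp1* and *Atoh8*), beside 18.0% of all genes, and 3 lower (*Bmp3*, *Cer1* and *Bmper*), beside 8.2%, so these counts do not set the pathway apart. *Bmp1*, a Chordin-cutting protease, and *Atoh8*, a BMP target, had 11.8 and 11.2 FPKM in NotoP and were listed at 0 in MP. *Cer1*, named here after its values were seen, had 20.9 FPKM in E8.5 MP, 1.08 FPKM in E8.5 NotoP, 7.58 FPKM in E8.5 trunk notochord and 0 in all E9.5 libraries. At E9.5, 2 of 29 were higher (*Bmp5* and *Dand5*), beside 5.33%, and 4 lower (*Grem1*, *Tsku*, *Msx2* and *Tbx3*), beside 2.25%. *Tbx3*, a target in several tissues, had 5.17 FPKM in E9.5 MP and 0.277 FPKM in NotoP, a log2 ratio of −2.27. Counts with 5 FPKM added were 3 higher and 1 lower at E8.5, and 0 and 0 at E9.5.

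In culture, further BMP targets were found on both sides. Against MPdiff cells, 4 of 27 tested pathway genes were higher in NotoPdiff cells (*Dand5*, *Tll1*, *Id4* and *Hey1*), beside 3.02% of all genes, and 3 lower (*Msx1*, *Msx2* and *Tbx3*), beside 0.861%. The log2 ratio was 3.41 for *Dand5*, −3.10 for *Tbx3* and −2.50 for *Msx2*. Of the 5 targets past 3-fold, *Msx1*, *Msx2* and *Tbx3* lay on the side of the *Id* genes, and *Id4* and *Hey1*, also reached by other pathways, on the other. Against NMPdiff cells, NotoPdiff cells had 5 of 25 higher (*Bmp5*, *Dand5*, *Id4*, *Hey1* and *Atoh8*), beside 2.52%, and 0 lower, beside 1.53%. Among these, *Hey1* had a log2 ratio of 3.54, *Dand5* of 3.41 and *Bmp5* of 3.01. MPdiff cells had 5 of 24 higher than NMPdiff cells (*Bmp5*, *Msx1*, *Msx2*, *Hey1* and *Tbx3*), beside 1.78%, and 0 lower, beside 2.92%. Here *Tbx3* had a log2 ratio of 3.27, *Msx2* of 3.21 and *Msx1* of 2.41. Most of these calls depend on the FPKM added, since with 5 FPKM 1 pathway gene was higher and 0 lower for NotoPdiff over MPdiff, 2 were higher for NotoPdiff over NMPdiff and 0 for MPdiff over NMPdiff.

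Trunk notochord was set against NotoP for the same genes. At E8.5, 3 of 31 tested were higher in the trunk (*Bmp3*, *Cer1* and *Sostdc1*), beside 8.79% of all genes, and 5 lower (*Dand5*, *Bmper*, *Msx1*, *Msx2* and *Hey1*), beside 8.0%. At E9.5, 6 of 35 were higher (*Bmp3*, *Bmp5*, *Sostdc1*, *Chrdl1*, *Tbx2* and *Tbx3*), beside 8.41%, and 6 lower (*Smad1*, *Smurf1*, *Dand5*, *Bmper*, *Tll2* and *Hey1*), beside 10.0%. These counts fell to 1 and 1 at E8.5 and to 2 and 0 at E9.5 with 5 FPKM added. *Sostdc1*, an antagonist of BMP and Wnt signals, had 2.69 and 27.6 FPKM in NotoP and trunk notochord at E8.5 and 0.368 and 55.7 FPKM at E9.5, with log2 ratios of 2.96 and 5.37. It was at 0.409 FPKM or below in the MP and cultured libraries. *Bmp3*, which opposes other BMPs, had 7.07 FPKM in trunk notochord and 0 in NotoP at E8.5, and 13.7 and 0.414 FPKM at E9.5. Of the antagonist genes, the trunk had *Nog* and *Sostdc1* high with *Chrd* and *Dand5* low, whereas NotoP had *Nog*, *Chrd* and *Dand5*. *Cer1* (E8.5) and *Chrdl1* (E9.5) were also higher in the trunk, and *Bmper* (both stages) and *Fst* (E9.5) lower. *Dand5* and *Bmper* were listed at 0 in both trunk libraries, which came from few cells. Counts past 3-fold among so few genes do not set the pathway apart.

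The median log2 ratio was taken over the pathway genes tested in each comparison, 24 to 35 of the 50, so the set changes. It was 0.29 for NotoP over MP at E8.5 and 0.11 at E9.5, beside 0.15 and 0.05 over all genes. In culture it was 0.04 for NotoPdiff over MPdiff, 0.48 for NotoPdiff over NMPdiff and 0.63 for MPdiff over NMPdiff, beside 0.03, 0.00 and −0.04. For trunk notochord over NotoP it was 0.04 at E8.5 and 0.22 at E9.5, beside 0.05 and 0.01. The median lay farthest from that of all genes in the comparisons with NMPdiff cells.

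Over the 9 libraries, the genes of the table whose log2 levels ran most like those of 4 members were listed, among the 8352 genes whose mean level was 5 FPKM or more. *Sema3e* (Pearson r 0.989), *Ptch1* (0.987) and *Clu* (0.986) were most like *Nog*. For *Chrd* they were *Furin* (0.975), *Tagln2* (0.937) and *Mxi1* (0.930), for *Bmp7* *Zc3h12c* (0.944), *Rab11fip4* (0.931) and *Hsdl1* (0.929), and for *Id1* *Cops7b* (0.915), *Khdrbs3* (0.904) and *Gle1* (0.893). *Ptch1*, itself a target of Shh signalling, had 150 and 12.7 FPKM in NotoP and MP at E8.5, 86.0 and 23.7 FPKM at E9.5, 189 and 136 FPKM in trunk notochord, and 12.4, 112 and 23.0 FPKM in NMPdiff, NotoPdiff and MPdiff cells. With so many genes ranked over 9 libraries that fall into few kinds of cell, high values are common, and they are given as description only.

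The peak lists show where T and Foxa2 were found near the 10 genes in NotoPdiff-enriched cultures. The T list holds 6875 peaks and the Foxa2 list 22684, called by the authors on each library at a q cutoff of 0.1, with median fold enrichments of 7.45 and 7.19 at the summit. Peaks were assigned to a gene when the summit lay within 100 kb of its transcription start. By this rule all 10 genes had a T peak, beside 43.6% of 21951 protein-coding genes, and all 10 had a Foxa2 peak, beside 72.6%. A T peak overlapping a Foxa2 peak by at least 1 bp lay near 6 of the 10 (*Bmp2*, *Bmp7*, *Nog*, *Chrd*, *Id2* and *Id3*), beside 8.98%. For the 10929 genes with at least 1 FPKM in NotoPdiff cells the shares were 50.1%, 80.8% and 10.7%.

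Genes of every role had peaks, and the 10 had more than the median gene. The 10 genes had 18 T peaks, 35 Foxa2 peaks and 6 shared peaks, with a median of 2 T and 3 Foxa2 peaks per gene beside 0 and 1 over all protein-coding genes and 1 and 2 over those at 1 FPKM or more in NotoPdiff cells. Within 50 kb, 6 genes had a T peak, beside 26.2% of protein-coding genes, 9 a Foxa2 peak, beside 51.6%, and 2 a shared peak (*Nog* and *Chrd*), beside 4.71%. Developmental genes often lie in gene-poor regions, where a 100 kb window holds more intergenic sequence, and the part of this in the counts was not tested. A peak need not act on the gene it was assigned to, and sites below the cutoff are not in the lists.

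*Nog* (chromosome 11, 89300638 to 89302332, minus strand, GRCm38/mm10) had 2 T and 8 Foxa2 peaks, and for all of them *Nog* was the nearest protein-coding gene. The shared pair lies 14.5 kb downstream of the start in intergenic sequence. Its T peak (89287610 to 89288076) had a fold enrichment of 12.9, above 86.0% of the T list, and its Foxa2 peak (89287587 to 89288090) had 9.83. Their summits were 12 bp apart. The other T peak lies 2.1 kb downstream of the start, just past the gene's end, with a fold enrichment of 5.07. The strongest Foxa2 peaks lie 37.1 kb downstream and 52.8 kb upstream, with 12.8 and 13.2.

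*Chrd* (chromosome 16, 20733127 to 20742384, plus strand) had the shared pair nearest to a start, 3.17 kb upstream in an intron of *Thpo*. The T peak spans 20729897 to 20730182 and is 5.28-fold enriched, and the Foxa2 peak spans 20729765 to 20730245 and is 11.8-fold enriched, with 94 bp between summits. *Chrd* had 2 further T and 2 further Foxa2 peaks within the window, and for all 4 of these the start of another gene was nearer. *Nog* and *Chrd*, both high in NotoP, each had a shared pair within 50 kb, but no relation follows from so few genes. *Fst* (chromosome 13, 114452290 to 114458951, minus strand) had 1 T peak, 51.0 kb away with a fold enrichment of 3.81, 2 Foxa2 peaks and 0 shared. The start of *Ndufs4* is nearer to this T peak than that of *Fst*.

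Near the ligand genes the shared pairs lay farther out. *Bmp2* (chromosome 2, 133552159 to 133562885, plus strand) had 2 T and 4 Foxa2 peaks, and a shared pair 65.3 kb downstream in intergenic sequence, with fold enrichments of 8.68 for T and 12.7 for Foxa2 and summits 379 bp apart. *Bmp7* (chromosome 2, 172868012 to 172940321, minus strand) had 3 peaks of each factor. Its shared pair lies 72.5 kb from the start, right at the end of the gene, with 6.36 and 5.62, and another T peak lies in an intron 2.77 kb from the start with 6.50. *Bmp4* (chromosome 14, 46383520 to 46390669, minus strand) had 1 T peak, 13.9 kb downstream with a fold enrichment of 9.88, 6 Foxa2 peaks and 0 shared. The start of *Gm15217* is nearer to this T peak than that of *Bmp4*. *Bmp4* was also the ligand gene with the least difference between NotoP and MP at E8.5, but no relation follows from so few genes.

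The *Id* genes had peaks too, although their RNA was no higher in NotoPdiff than in MPdiff cells. *Id1* (chromosome 2, 152736251 to 152737410, plus strand) had a T peak 3.26 kb downstream of the start with a fold enrichment of 11.3, another T peak in a UTR of *H13*, 1 Foxa2 peak and 0 shared. *Id2* (chromosome 12, 25093799 to 25097140, minus strand) had a shared pair 85.3 kb downstream in an intron of *Kidins220*, with 6.24 for T and 18.6 for Foxa2, the latter above 98.7% of the Foxa2 list. *Id3* (chromosome 4, 136143497 to 136145755, plus strand) had a shared pair 73.8 kb downstream in an intron of *Asap3*, with 11.0 and 5.78 and summits 10 bp apart. The starts of *Kidins220* and *Asap3* are nearer to these pairs than those of *Id2* and *Id3*.

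*Bambi*, on chromosome 18, had 2 T and 3 Foxa2 peaks and 0 shared. The nearest T peak lies 10.3 kb downstream of the start with a fold enrichment of 6.89. The strongest Foxa2 peak lies 60.2 kb downstream with 11.9. *Bambi* had low RNA in NotoPdiff cells (1.05 FPKM), so peaks were also found near a gene with little RNA there, although over all genes those at 1 FPKM or more had peaks more often.

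**Figure D2:**
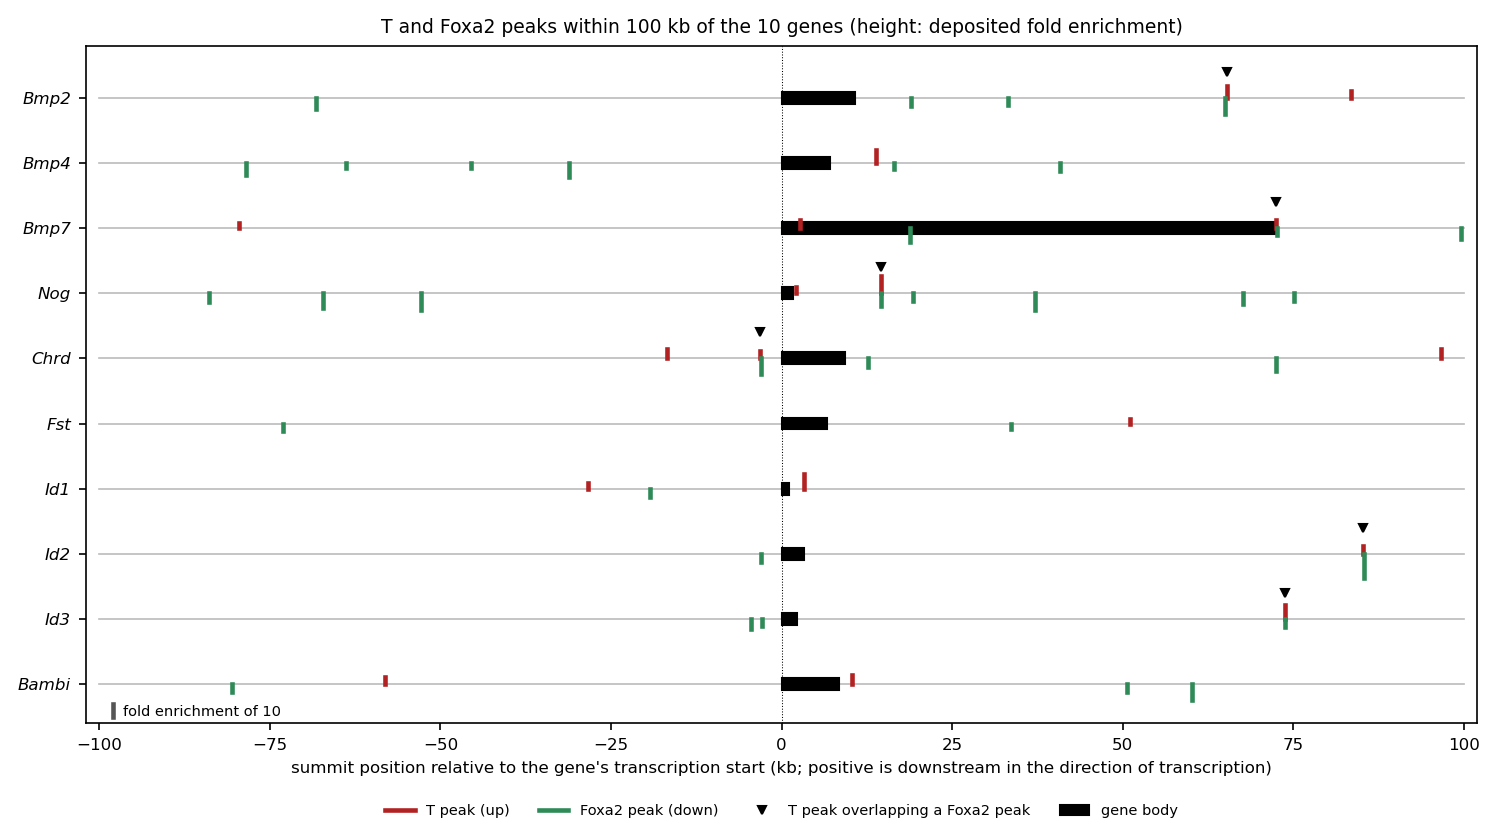
Position of T peak summits (red, up) and Foxa2 peak summits (green, down) relative to the transcription start of each gene in kb, positive in the direction of transcription, with tick height proportional to fold enrichment. Triangles mark the 6 T peaks that overlap a Foxa2 peak, of which the pairs at *Nog* and *Chrd* lie within 50 kb of the start.

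Sequence around the summits was searched on both strands for the T-box letters GGTGTGA and the shorter GTGTGA, which lies within it, and for the forkhead letters TGTTTAC or TGTTTGC or TATTTAC. Within 50 bp of the summit, GGTGTGA was in 8.73% of 6871 T peaks and in 1.47% of windows 10 kb away, and a forkhead match was in 17.1% and 4.64%. For 22680 Foxa2 peaks, a forkhead match was in 26.0% and in 5.33% of windows 10 kb away, and GGTGTGA in 1.39% and 1.34%. Each factor's own letters were thus more frequent at its summits than away from them. Near the 10 genes, GGTGTGA was in 1 of 18 T windows and a forkhead match in 13 of 35 Foxa2 windows and 3 of 18 T windows. GTGTGA was in 23.4% of all T windows, 6.2% away from them, and 1 of the 18, and in 12.3% of all Foxa2 windows, 6.13% away, and 6 of the 35.

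*Nog* carries the T-box match among the 18, in the intergenic T peak 2.1 kb from its start. The sequence is shown because it is the single such match, beside the shared pair, whose summit window holds none of the letters searched, and the Foxa2 peak 37.1 kb downstream, whose window is the 1 of 8 *Nog* Foxa2 windows with a forkhead match. The strongest *Nog* Foxa2 peak, 52.8 kb upstream, has none. The windows are chr11:89300182-89300282, chr11:89287763-89287863 and chr11:89265167-89265267, all intergenic and printed from the plus strand of GRCm38/mm10. Capitals mark GGTGTGA in the first of these and GTAAATA, the reverse complement of TATTTAC, in the last, which 9.63% of Foxa2 windows and 1.79% of windows away hold.
Nog T peak near the gene end: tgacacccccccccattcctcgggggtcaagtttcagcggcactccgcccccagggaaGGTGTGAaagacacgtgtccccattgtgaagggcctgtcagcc
Nog shared T peak: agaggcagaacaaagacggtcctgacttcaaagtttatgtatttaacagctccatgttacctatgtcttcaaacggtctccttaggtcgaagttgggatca
Nog Foxa2 peak: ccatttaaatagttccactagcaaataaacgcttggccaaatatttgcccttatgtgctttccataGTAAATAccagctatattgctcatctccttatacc
A match describes letters only, and a window without a match shows only that these letters are not in it.

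The shared pair of *Chrd* is printed as the one nearest to a start, from the Foxa2 window chr16:20730005-20730105 in the *Thpo* intron, and holds no match. For the ligand genes, the Foxa2 windows of the shared pairs, chr2:133617078-133617178 (*Bmp2*, intergenic) and chr2:172867661-172867761 (*Bmp7*, intergenic), each hold TGTTTAC, in capitals as such or as its reverse complement GTAAACA. Of all Foxa2 windows 9.74% hold these letters, and 1.61% of windows 10 kb away. All 3 are read from the plus strand of GRCm38/mm10.
Chrd shared Foxa2 peak: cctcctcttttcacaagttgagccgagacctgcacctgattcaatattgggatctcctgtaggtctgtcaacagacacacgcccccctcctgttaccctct
Bmp2 shared Foxa2 peak: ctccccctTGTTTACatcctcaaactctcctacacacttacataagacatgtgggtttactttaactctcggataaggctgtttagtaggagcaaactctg
Bmp7 shared Foxa2 peak: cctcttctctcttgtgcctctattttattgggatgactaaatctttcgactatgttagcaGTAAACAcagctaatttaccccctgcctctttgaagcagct
In the *Bmp2* window the match lies near the edge and not at the summit, which is the centre.

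The *Id2* and *Id3* pairs are shown because one holds the strongest Foxa2 peak near the 10 genes and the other the closest summits. The Foxa2 window of *Id2*, chr12:25011757-25011857 in the *Kidins220* intron, has 2 matches to TGTTTAC as GTAAACA, inside a stretch whose letters recur along the window. The T window of *Id3*, chr4:136217255-136217355 in the *Asap3* intron, has GTAAATA, the reverse complement of TATTTAC, which 4.38% of T windows and 1.51% of windows away hold. Both are from the plus strand of GRCm38/mm10, with matches in capitals.
Id2 shared Foxa2 peak: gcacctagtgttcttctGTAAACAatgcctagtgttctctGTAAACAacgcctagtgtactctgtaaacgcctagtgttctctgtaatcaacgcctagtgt
Id3 shared T peak: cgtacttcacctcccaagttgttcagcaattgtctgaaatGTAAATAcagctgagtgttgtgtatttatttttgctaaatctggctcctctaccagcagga
Neither window holds GTGTGA.

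Many Foxa2 summits lie in simple repeats of CA or TG, which bears on how the Foxa2 counts should be read. Windows of which at least 60% is made of such dinucleotides were 13.7% of Foxa2 windows (3111 of 22680) and 0.41% of windows 10 kb away, but 0.0728% of T windows (5 of 6871), beside 0.67% away. Near the 10 genes, 10 of 35 Foxa2 windows and 0 of 18 T windows were of this kind. Among them are *Nog* windows of 67%, 66% and 61% repeat, so the *Nog* count of 8 Foxa2 peaks is lower without them. The Foxa2 window chr14:46436118-46436218 upstream of *Bmp4*, intergenic and from the plus strand of GRCm38/mm10, is an example, with 69% repeat and a fold enrichment of 4.23, and holds none of the letters searched.
Bmp4 Foxa2 peak in a TG repeat: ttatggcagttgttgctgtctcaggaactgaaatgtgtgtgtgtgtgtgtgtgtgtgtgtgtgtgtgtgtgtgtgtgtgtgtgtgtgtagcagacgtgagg
Without such peaks, a setting added after the data were seen, 19573 Foxa2 peaks were left, all 10 genes had at least 1 of them, beside 68.5% of protein-coding genes, and 25 of the 35 peaks stayed. That all 10 kept a peak depends on the cut, since the single Foxa2 window of *Id1* is 59% repeat, just under it. GTGTGA can form within TG repeats, so its count in Foxa2 windows includes these.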

How the data were processed

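RNA-seq levels are FPKM as the authors deposited them, from Bowtie 1.2.2, TopHat2 2.1.1 and Cufflinks 2.2.1 after removal of duplicate molecules. All 9 columns of the table were used and 0 were left out. The 2 deposited peak lists (MACS3 3.0.0b1 on Bowtie 1.3.1 alignments, no control library named) give the ratio of signal to local background at the summit, called fold enrichment here, −log10 q, and a score, the integer part of 10 times −log10 q, which was not used.

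Computed here were log2 ratios of FPKM with 1 added, counts at 3-fold, sums, Pearson correlations and summit distances to GENCODE gene starts. Sequences come from GRCm38. The members and lists were chosen with earlier results of these data known. Named genes are the 10 members, pathway genes past 3-fold at both stages, the 3 with the largest ratio in each other comparison, the 3 most like each of 4 members, and markers. Others named were chosen after their values were seen. The design listed 101 alternatives, and 95 were added after the data were seen, where 1 entry can cover several values. They changed the pseudocount, scaling, fold, filter, window, q cutoff, overlap and libraries. The code was tested on simulated data. Python 3.11.15, numpy 2.4.6, pandas 2.3.3 and matplotlib 3.10.9 were used.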

Additional observations from a re-analysis of the deposited data

Results flagged for a closer look

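The items here had log2 ratios of at least 2-fold size in opposite directions in comparisons of the same kind. Each comparison rests on 1 library a side, and the difference was not tested in any of them.

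*Id1* had a log2 ratio of 2.73 for NotoP over MP at E8.5 and of −2.09 for NotoPdiff over MPdiff, a difference of 4.82, which was not tested. *Id1* was 5.56 FPKM in E8.5 MP and 81.8 FPKM in E9.5 MP, and at E9.5 the log2 ratio was −0.42.

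*Bmp4* had 1.70 for NotoP over MP at E9.5 and −1.41 for NotoPdiff over MPdiff, a difference of 3.11, which was not tested.

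*Fst* had 1.29 for trunk notochord over NotoP at E8.5 and was listed at 0 in the E9.5 trunk. With 1 FPKM added the difference of the log2 ratios was 4.11, which was not tested and depends on the value added.

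*Id1* had a log2 ratio of E9.5 over E8.5 of 3.66 in MP and −2.73 in trunk notochord, a difference of 6.38, which was not tested. The low values are those of E8.5 MP and E9.5 trunk notochord.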

How the results depend on the processing

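Of 103 recomputed member counts, 89 stayed within 1.5 times the reported count, as did 59 of 86 pathway counts, 19 of 27 ratios of sums and 2 of 6 motif counts. Of 210 recomputed log2 ratios, 198 kept their side of 3-fold, 9 fell below it, 3 passed it and 0 reversed. The cause of the shifts below was not tested.

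With 5 FPKM added, members higher in NotoP than MP numbered 3 at E8.5, 2 at E9.5 and 1 at both stages, and members lower in the trunk 1 (E8.5) and 2 (E9.5), without *Bmp4* at either stage. *Bmp4* was then also within 3-fold for NotoPdiff over NMPdiff. With 0.1 FPKM added, 2 members were lower in MPdiff than in NMPdiff cells and 1 higher in E8.5 trunk notochord. At 2-fold, 2 members were lower in NotoP than MP at E8.5, 5 lower in NotoPdiff than MPdiff, 2 lower in NotoPdiff than NMPdiff and 4 higher in E8.5 trunk notochord. The shares of all genes past the threshold given earlier hold at 3-fold with 1 FPKM added. Counts of higher or lower genes at other settings, here and below, therefore have no share beside them and set nothing apart. With E8.5 in place of E9.5 trunk notochord, 1 member was lower.

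Pathway genes higher in NotoP than MP at both stages numbered 2, and 0 with 5 FPKM added, and those lower 0, and 1 with 0.1 FPKM added, at 2-fold or without the E8.5 MP library. Pathway genes higher in NotoP numbered 3 (E8.5) and 0 (E9.5) with 5 FPKM added, and those lower 1 and 0. Against MPdiff cells, 1 was then higher in NotoPdiff cells and 0 lower, and against NMPdiff cells 2 were higher in NotoPdiff and 0 in MPdiff cells. In trunk notochord, 1 was then higher and 1 lower at E8.5, and 2 and 0 at E9.5.

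Other settings gave more. At 2-fold, pathway genes higher in NotoP than MP numbered 11 (E8.5) and 5 (E9.5) and those lower 6 (E8.5), 8 were higher in NotoPdiff and 9 in MPdiff than in NMPdiff cells, and 5 (E8.5) and 12 (E9.5) were higher in trunk notochord. With 0.1 FPKM added, 5 were lower in NotoP at E8.5 and 4 higher at E9.5, 1 was lower in MPdiff than in NMPdiff cells, and 5 were higher in E8.5 trunk notochord.

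With *Nog* and *Chrd* alone the antagonist to ligand ratio was 0 in E8.5 MP, 0.510 in E9.5 MP, 0.179 in NMPdiff, 1.34 in NotoPdiff and 0.0827 in MPdiff cells. With 1 FPKM added to every gene it was 0.225 in E8.5 MP, and with all listed ligands 2.13 and 0.963 in E8.5 and E9.5 trunk notochord and 0.957 in MPdiff cells.

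Within 50 kb, 6 members had a T peak and 2 a shared peak. Within 100 bp of the summit, GGTGTGA was in 2 of the 18 T windows near the 10 genes, beside 11.7% of all T windows. GTGTGA was in 2 T and 10 Foxa2 windows, beside 31.2% and 21.0% of all. Forkhead letters were in 5 T windows, beside 29.4%.

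The deposited files give no depth. The study lists mapped reads for the embryonic libraries, which were not used, so no precision of single values was computed. Levels near 0 in E8.5 MP and in trunk notochord, the libraries from the fewest cells, are the least certain.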

Other observations

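Between stages, NotoP cells had less *Chrd*, *Bmp7*, *Nog* and *Bmp2* RNA at E9.5 than at E8.5, of which *Chrd* alone reached 3-fold. No share of all genes is given for the stage comparisons, so they describe single genes. By plain FPKM, *Chrd* was 3.50-fold lower, *Bmp7* 2.85-fold lower and *Nog* 2.02-fold lower, whereas *Bmp4* was 2.05-fold higher and *Fst* was level at 6.00 and 6.04 FPKM. *Id1* and *Id3* were 1.43-fold and 1.41-fold higher and *Id2* 1.85-fold lower. In MP cells, *Bmp7* was 18.9-fold lower at E9.5 than at E8.5 (0.748 and 14.1 FPKM), and *Id1* was 14.7-fold higher. The Foxa2 gate of NotoP also differed between the stages. The E8.5 MP library held lateral plate and gut marker RNA that the E9.5 library nearly lacked, and the part of this in these stage differences was not tested.

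Peaks were also counted in an interval that takes in the neighbouring protein-coding genes, in place of a fixed window. Peaks inside these neighbours are included, such as the *Id2* pair in *Kidins220* and a T peak of *Id1* in *H13*. By this rule *Bmp2* had 8 T and 20 Foxa2 peaks over 1650 kb, 3 of the T peaks shared. *Bmp4* had 7 and 20 over 1183 kb with 0 shared, *Nog* 11 and 13 over 704 kb with 4 shared, and *Id2* 3 and 15 over 1440 kb with 1 shared. *Id3* had 1 and 2 over 168 kb with 0 shared, as its shared pair within 100 kb of the start lies past the following gene. By this count, 5 of the 10 genes had a shared peak (*Bmp2*, *Bmp7*, *Nog*, *Chrd* and *Id2*). No share of all protein-coding genes is given beside it, so the count describes these genes only. *Id1* lies in the shortest interval, 95.6 kb, with 2 T peaks and 1 Foxa2 peak. The intervals differ in length, so these counts cannot be compared between genes.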
